A study of Mus musculus with 10 samples.

Results

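Rab5a, Atg3, Chgb, Tm9sf1 and Anxa8 encode proteins of endosomes, autophagy and secretory granules, the compartments through which a cell sorts, degrades and releases membrane cargo. Their RNA was read in extracellular vesicles of mouse brain by 5 probes of an Agilent array, chosen as the probes of the A_51_P series whose RefSeq accession belongs to one of these genes. They are 5 of 46 probes with a gene name, among 60823 probes that are not controls. Each of the 5 was printed at 10 spots per array, so every level has its own technical repeats. All 5 met the limit for testing, which is to be well above background on at least 5 of 10 arrays. Atg3 met it on exactly 5, and its values are not read as detection.

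The mice were adult females of the inbred strain C57BL/6J, and no allele or other agent is named. In the ethanol vapor group (5 arrays) the mice inhaled ethanol in 8 h sessions, 5 days a week, over 4 weeks. In the room air group (5 arrays) they breathed room air on the same schedule. When the final exposure day ended, vesicles were isolated from the whole brain by differential ultracentrifugation, and about 3 µg of their RNA, obtained with a SeraMir kit, was amplified and then tagged with the dye Cy3. A whole brain preparation mixes vesicles of all its cell types, and fewer vesicles of a kind cannot be told apart from less of an RNA per vesicle. Whether the replicates are different animals is not stated in the labels, and p-values here reflect only how these samples vary, which can be technical.

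Endosomes receive material from the cell surface and pass it to recycling, to lysosomes or, by inward budding, to the small vesicles that cells secrete. Autophagy wraps cytoplasm in a new membrane that later fuses with endosomes and lysosomes. Secretory granules hold neuropeptides and granin proteins in neurons and endocrine cells and release them on stimulation. Rab5a is the small GTPase that marks early endosomes, Atg3 the enzyme that joins LC3 proteins to lipid in autophagy, Chgb (chromogranin B) a granin of the dense-core granule, Tm9sf1 a multi-pass membrane protein of the nonaspanin family, and Anxa8 an annexin, a protein that binds phospholipid in the presence of calcium.

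The files hold no probe sequences, so the sequences shown are the promoters of the 3 genes that carry a motif searched for, to show what their start regions share and where they differ. RefSeq promoter windows (GRCm38.p6) matched all 5 genes. The 250 bases before the start site are printed 5′ to 3′ for Rab5a (chr17:53478984-53479233, plus strand), Atg3 (chr16:45158579-45158828, plus strand) and Chgb (chr2:132781392-132781641, plus strand). Capitals mark CACGTG, the E-box core that is also the centre of the element bound by the lysosome and autophagy regulator TFEB, and TGACGTCA, the cyclic AMP response element. Both read the same on either strand, and no 2 matches overlap.
Rab5a: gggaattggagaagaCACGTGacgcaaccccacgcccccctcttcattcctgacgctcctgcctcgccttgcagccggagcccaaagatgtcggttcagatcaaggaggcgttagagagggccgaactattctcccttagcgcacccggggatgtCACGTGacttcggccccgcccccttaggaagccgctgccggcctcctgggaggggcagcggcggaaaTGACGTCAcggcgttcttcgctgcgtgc
Atg3: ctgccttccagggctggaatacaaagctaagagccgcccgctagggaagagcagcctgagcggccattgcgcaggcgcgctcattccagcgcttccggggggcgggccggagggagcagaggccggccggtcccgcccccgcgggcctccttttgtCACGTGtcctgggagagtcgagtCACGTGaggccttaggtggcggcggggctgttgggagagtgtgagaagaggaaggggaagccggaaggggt
Chgb: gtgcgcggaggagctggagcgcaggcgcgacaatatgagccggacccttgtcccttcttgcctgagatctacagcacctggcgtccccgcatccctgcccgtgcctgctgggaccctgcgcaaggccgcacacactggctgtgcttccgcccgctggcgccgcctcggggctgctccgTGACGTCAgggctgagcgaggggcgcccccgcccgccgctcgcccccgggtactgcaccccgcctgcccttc

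CACGTG occurs at 2 places in the Rab5a window, starting 235 and 95 bases before the start site, and at 2 places in the Atg3 window, 94 and 71 bases before it. Of all 32851 promoter windows cut to the same length, 6.02% hold CACGTG at least once and 0.429% hold it at 2 or more places. TGACGTCA starts 28 bases before the start site of Rab5a and 72 bases before that of Chgb, and 1.55% of all windows hold it. Neither motif is in the 2 Tm9sf1 windows or in the Anxa8 window, which says only that these letters are not there. The motifs were chosen with the sequences in view, and a match is not a binding site.

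By the scan image identifier in their headers, the 10 arrays form 2 sets. These are called slides, but the labels name none and the identifier could mark a scan instead. Slide 1 holds room air replicates 1, 2 and 3 and ethanol replicate 4, and slide 2 holds room air replicates 5 and 9 and ethanol replicates 6, 7, 8 and 10. Between 62.1% and 74.5% of noncontrol spots were well above background on slide 1 arrays, and between 75.9% and 87.9% on slide 2 arrays. The 15 noncontrol probes named as negatives also differed, with array medians from -4.54 to -3.86 on slide 1 and from -2.41 to -1.91 on slide 2. In limma 75.1% of the 49356 tested probes passed an adjusted p of 0.05 between slides, and the median slide difference (slide 2 minus slide 1) of all tested probes was 0.68. A level is the log2 intensity after subtraction of the array's own 75th percentile, and a group difference is ethanol vapor minus room air, also in log2. A level belongs to its probe, whose report of the named gene was not checked, and is not compared between genes as an amount of RNA.

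None of the 5 genes passed the adjusted threshold between ethanol vapor and room air vesicles. In limma 0 of 5 passed and 0 of 5 had an unadjusted p under 0.05, against 0% and 4.98% of all tested probes. Of the 5 differences 4 were above 0, as were 69.3% of all tested probes, and 1 was below. Their median was 0.21, beside 0.26 over all tested probes. With the slide as a block again 0 of 5 passed, against 0% of all probes, and 1 of 5, Tm9sf1, had an unadjusted p under 0.05, against 8.66% of all probes in either direction and 4.62% with a lower level in ethanol vapor. The blocked median was 0.0061, beside 0.033 over all tested probes, and 3 of the 4 blocked 95% intervals of the genes other than Atg3 excluded changes of 2-fold or more, up or down, against 86.4% of all tested probes. Without ethanol replicate 4, the fit without a slide term gave 0.63 for Rab5a, 1.68 for Atg3 and -0.60 for Chgb. Each had an unadjusted p under 0.05 in limma (0.043, 0.031 and 0.034), as did 18974 of the 49356 tested probes. None passed the adjusted threshold in limma (adjusted p 0.123, 0.116 and 0.117). Every ethanol array left in that fit came from slide 2. Adding a slide term brought these differences to 0.089 for Rab5a, 0.085 for Atg3 and -0.16 for Chgb. The groups overlapped for every one of the 5 genes, while 0.504% of all tested probes had groups that did not overlap.

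**Figure D1:**
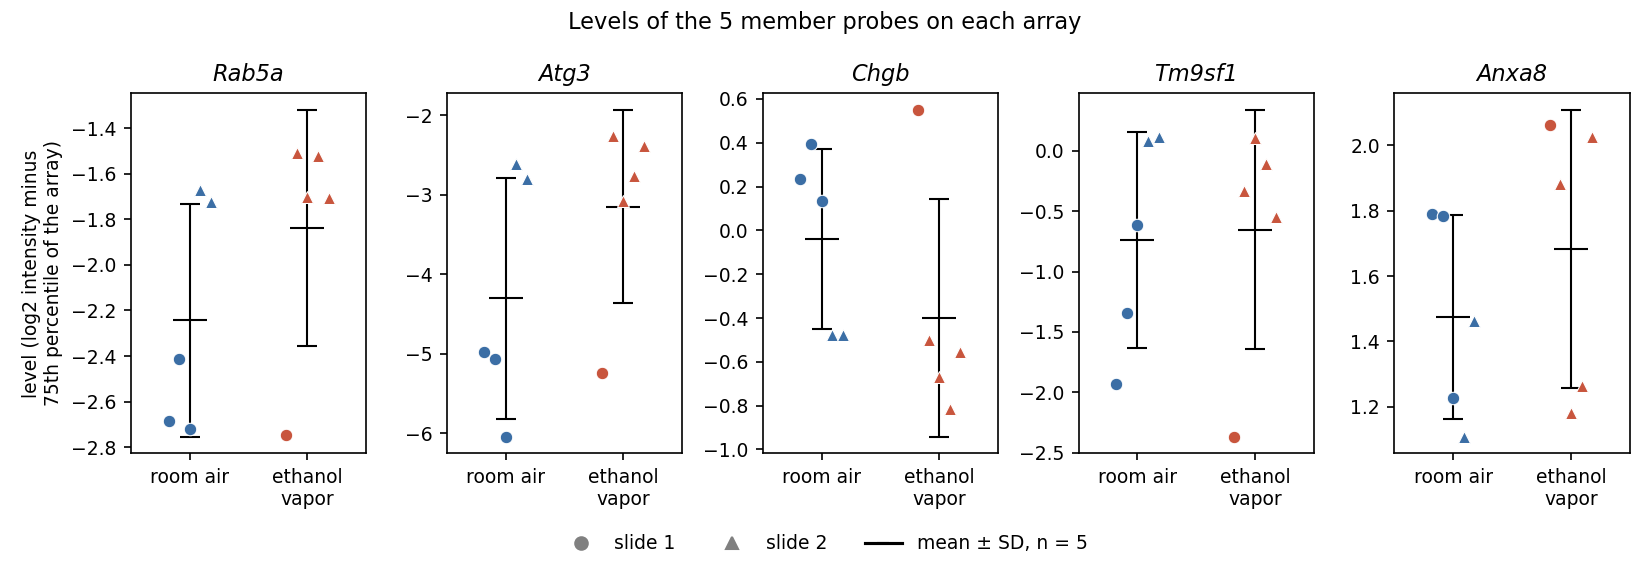
Levels of the 5 genes on each array (log2 intensity minus the 75th percentile of the array, a separate scale per gene), with circles for slide 1 and triangles for slide 2 and black bars for the mean and SD of 5 arrays. For Rab5a, Atg3 and Tm9sf1 all circles lie below all triangles, for Chgb all circles lie above, and for Anxa8 the slides overlap.

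Rab5a, the early endosome GTPase, was read at low intensity on every array. In room air its levels were -2.69, -2.41 and -2.72 in replicates 1, 2 and 3 and -1.67 and -1.73 in replicates 5 and 9. In ethanol vapor they were -2.75 in replicate 4 and -1.51, -1.70, -1.52 and -1.71 in replicates 6, 7, 8 and 10. The low values of both groups are the slide 1 arrays, and within a slide the 2 groups lie close together. The group means were -2.24 ± 0.51 (SD, n = 5) and -1.84 ± 0.52 (SD, n = 5), a difference of 0.41 (SE 0.32) with an adjusted p of 0.533 in limma. That difference turned negative under median scaling and quantile normalization. With the slide as a block it was 0.0061 (SE 0.14, 95% interval -0.30 to 0.31), or between 0.812-fold and 1.24-fold, and the adjusted p was 0.995. Within slide 1, with a single ethanol array, it was -0.14, and within slide 2 it was 0.089.

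The Rab5a probe was well above background on 10 of 10 arrays and at 97 of 100 spots, and the median SD between its 10 spots was 0.32. Its residual SD after slide and group, 0.13, is smaller than that of all but 4.61% of tested probes. On slide 1 it read 1.17 to 2.13 above the median of the probes named as negatives, and 0 to 2 of those 15 probes read at or above it. On slide 2 the margin was 0.40 to 0.68, and 3 to 6 of the 15 read at or above it. Rab5a thus stood closer to the probes named as negatives on the slide where its own level was higher.

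Atg3, which performs the last transfer step of LC3 lipidation, was the dimmest of the 5 probes. In room air its levels were -4.98, -5.07 and -6.05 in replicates 1, 2 and 3 and -2.61 and -2.80 in replicates 5 and 9. In ethanol vapor they were -5.25 in replicate 4 and -2.26, -3.07, -2.77 and -2.38 in replicates 6, 7, 8 and 10. The 4 slide 1 arrays are low and the 6 slide 2 arrays high, whatever the group. Median spot intensities were 5.19 to 7.88 on slide 1 and 31.8 to 57.7 on slide 2. On slide 1 the probe cleared the background limit on 0 of 4 arrays, and on slide 2 it did so on 5 of 6, at 42 of 100 spots in all. Between 9 and 12 of the 15 probes named as negatives read at or above Atg3 on each array, so its values are not read as detection of the transcript.

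For Atg3 the room air mean was -4.30 ± 1.52 (SD, n = 5), and the ethanol vapor mean was -3.15 ± 1.22 (SD, n = 5). The difference of 1.15 (SE 0.77) had an adjusted p of 0.529 in limma and became 0.097 (SE 0.25, 95% interval -0.45 to 0.64, adjusted p 0.933) with the slide as a block. It was 0.12 on slide 1 and 0.085 on slide 2, both far smaller than the difference without the slide. Because none of the 4 slide 1 arrays had an Atg3 spot above the background limit, the size of each difference that uses slide 1 is uncertain. The slide 2 difference is uncertain too, since 9 to 10 of the 15 probes named as negatives read at or above Atg3 there.

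Chgb, the granin of dense-core granules, was read well above background at 100 of 100 spots, with a median SD of 0.093 between spots. In room air its levels were 0.24, 0.39 and 0.13 in replicates 1, 2 and 3 and -0.48 in both replicates 5 and 9. In ethanol vapor they were 0.55 in replicate 4 and -0.50, -0.67, -0.82 and -0.56 in replicates 6, 7, 8 and 10. The 4 high values are the slide 1 arrays, the opposite order to Rab5a and Atg3. Group means were -0.038 ± 0.41 (SD, n = 5) and -0.40 ± 0.54 (SD, n = 5), a difference of -0.36 (SE 0.31) with an adjusted p of 0.545 in limma.

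With the slide as a block the Chgb difference was 0.0046 (SE 0.15, 95% interval -0.32 to 0.33, adjusted p 0.996). The slides gave opposite signs. On slide 1 the ethanol array lay above all 3 room air arrays, a difference of 0.30, and on slide 2 all 4 ethanol arrays lay below both room air arrays, a difference of -0.16. Whether the slides differ in this respect was not tested, and slide 1 has 1 ethanol array. On slide 2 the groups nearly met, with ethanol replicate 6 at -0.501 and room air replicate 5 at -0.477. The SDs between spots on these arrays were 0.094 and 0.098. The share of all tested probes with such an order within a slide was not counted. The blocked difference turned negative under median scaling and quantile normalization.

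Tm9sf1, the nonaspanin, had the largest blocked difference of the 5 in size. In room air its levels were -1.93, -1.34 and -0.62 in replicates 1, 2 and 3 and 0.083 and 0.11 in replicates 5 and 9. In ethanol vapor they were -2.37 in replicate 4 and -0.34, 0.11, -0.11 and -0.55 in replicates 6, 7, 8 and 10. The lone ethanol array of slide 1 is the lowest of that slide, and on slide 2 ethanol replicates 6, 8 and 10 lie below both room air arrays while replicate 7 lies beside them. The group means were -0.74 ± 0.89 (SD, n = 5) and -0.65 ± 0.99 (SD, n = 5), nearly equal. More ethanol than room air arrays lie on slide 2, where the readings are higher. The difference was 0.087 (SE 0.54, adjusted p 0.933 in limma).

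With the slide as a block the Tm9sf1 difference was -0.59 (SE 0.27), or 0.664-fold, with a 95% interval from -1.18 to -0.0019. The unadjusted p was 0.0494 and the adjusted p 0.575 in limma, so the call did not pass. In the order of all tested probes' blocked differences it lay at percentile 2.44. It was -1.07 on slide 1 and -0.32 on slide 2. The sign stayed below 0 under each of the 9 other settings that gave a value, from -0.66 to -0.36, and without each array in turn, from -0.69 to -0.32. The unadjusted p did not stay under 0.05. It was 0.0565 with no filter on dim probes, 0.0828 with all spots kept and 0.0902 with the percentile taken from probes detected on all arrays, and between 0.0213 and 0.343 with 1 array left out. Leaving out ethanol replicate 4, whose blocked estimate then rests on slide 2 alone, gave the smallest size, -0.32, and the highest p.

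The Tm9sf1 probe was well above background on 10 of 10 arrays and at 98 of the 99 spots used. Its spots spread most on ethanol replicate 4, with an SD of 0.47, and there 1 spot was marked as non-uniform and left out. On the 3 room air arrays of slide 1 the SDs between spots were 0.20 to 0.27, and the levels of those arrays span -1.93 to -0.62. The residual SD after slide and group was 0.44, at percentile 81.0 of tested probes.

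**Figure D2:**
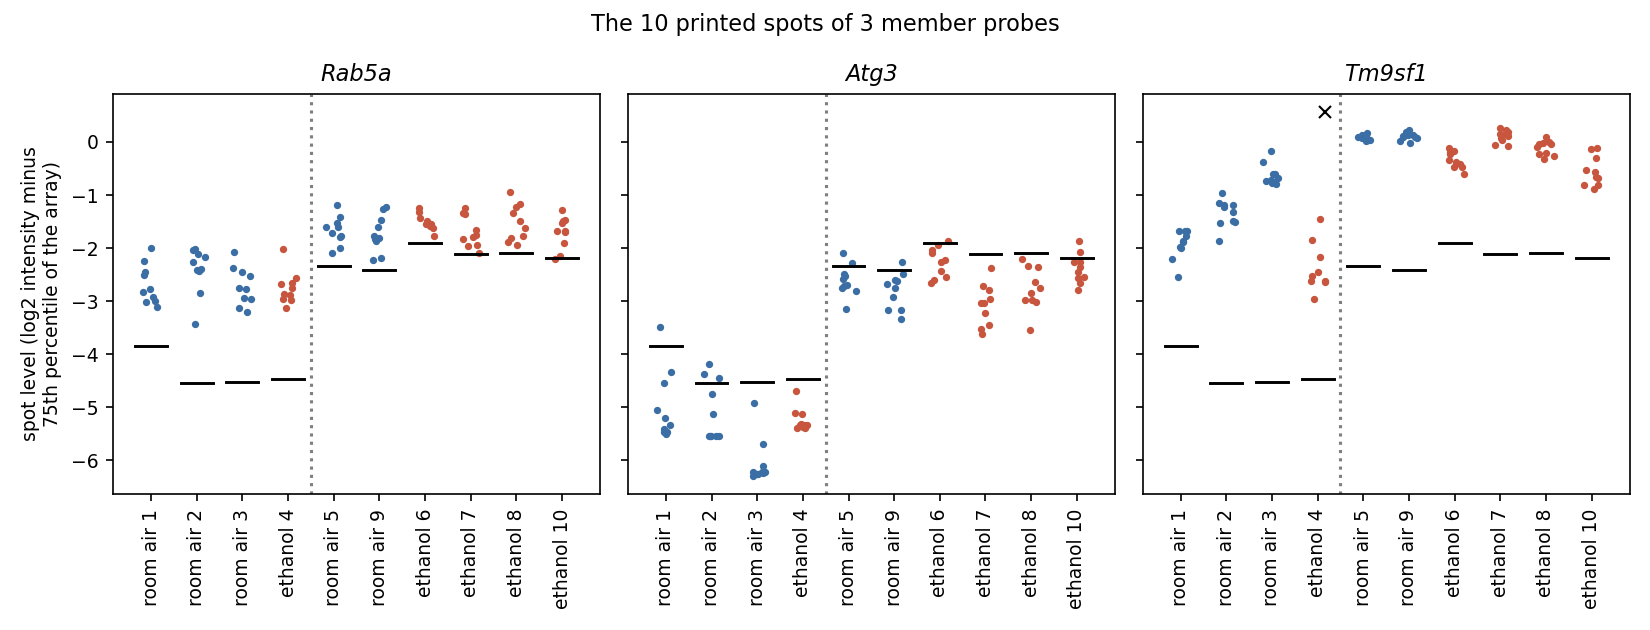
Each of the 10 printed spots of the Rab5a, Atg3 and Tm9sf1 probes on each array (log2 intensity minus the 75th percentile of the array), with blue for room air, red for ethanol vapor, a cross for the spot left out, a black line for the median of the 15 probes named as negatives and a dotted line between slides 1 and 2. Atg3 spots lie around or below the black line, and the Tm9sf1 spots of ethanol replicate 4 and room air replicate 1 overlap.

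Anxa8, the annexin, overlapped between the slides at this scaling, unlike the other 4 genes. In room air its levels were 1.79, 1.79 and 1.23 in replicates 1, 2 and 3 and 1.11 and 1.46 in replicates 5 and 9. In ethanol vapor they were 2.06 in replicate 4 and 1.88, 1.18, 1.26 and 2.02 in replicates 6, 7, 8 and 10. High and low arrays occur on both slides and in both groups. Group means were 1.47 ± 0.31 (SD, n = 5) and 1.68 ± 0.43 (SD, n = 5), a difference of 0.21 (SE 0.26, adjusted p 0.651 in limma) that turned negative under median scaling.

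With the slide as a block the Anxa8 difference was 0.36 (SE 0.22, 95% interval -0.13 to 0.85, adjusted p 0.638), and it was 0.46 on slide 1 and 0.30 on slide 2. The interval reaches from 0.916-fold to 1.80-fold. The probe was well above background at 100 of 100 spots. Its spot SD was 0.36 on ethanol replicate 6, where 4 of 10 spots carried a population outlier mark, and 0.13 or less on the other 9 arrays.

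**Figure D3:**
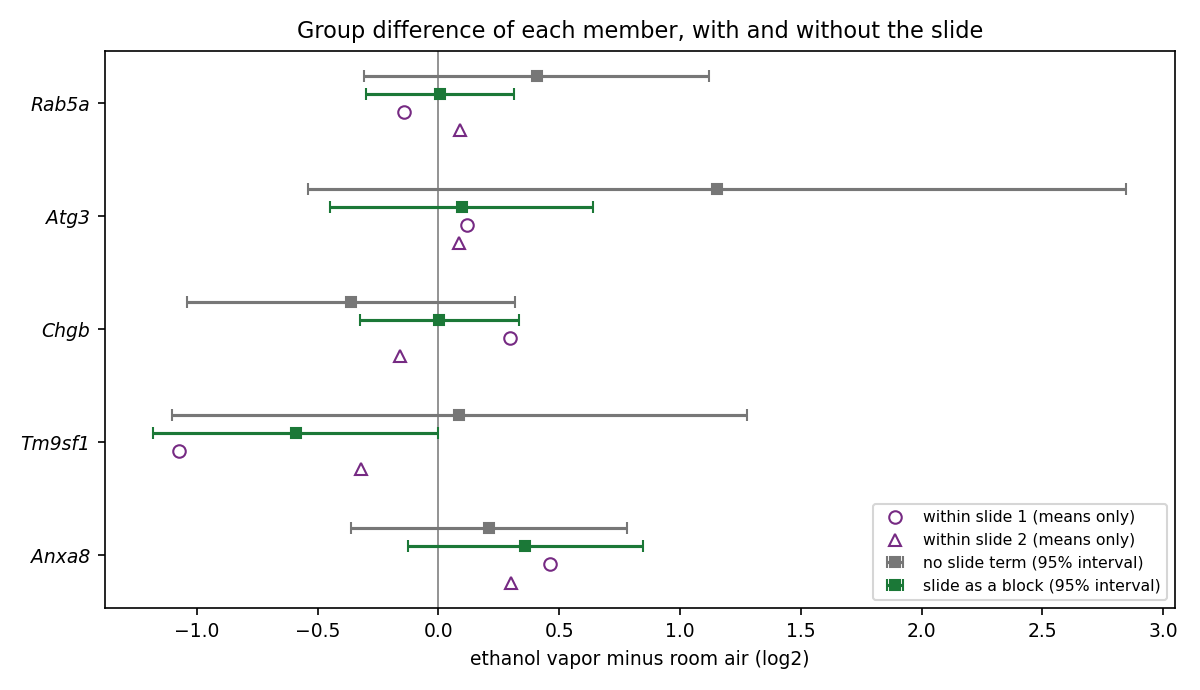
Difference of each gene, ethanol vapor minus room air (log2), as squares with 95% intervals from limma without a slide term (grey) and with the slide as a block (green), and as open symbols for the difference of means within each slide. The blocked intervals are narrower than the grey ones for all 5 genes, and that of Tm9sf1, from -1.18 to -0.0019, lies below 0.

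Between the slides, 3 of the 4 genes that were above background on all arrays passed the adjusted threshold in limma, beside 75.1% of all tested probes. Of the 34272 probes above background on all 10 arrays, 24350 passed when only these were tested. Atg3 was tested only because of its readings on slide 2, where it is high, so its slide difference is given as a description. With Atg3 left out, the levels of the same 3 of 4 genes, Rab5a, Chgb and Tm9sf1, did not overlap between slides, against 61.7% of all tested probes. Such shares near those of all probes are not a property of these genes.

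The Atg3 mean was -5.33 on slide 1 and -2.65 on slide 2. With each slide 1 array set to the lowest level called above background on it, -3.53 on average, the slide 2 mean was 1.84-fold higher. That difference, 0.88 in log2, holds only for the scaling by the 75th percentile and is not a strict lower bound. On ethanol replicate 8 Atg3 read -2.77 without being above background, while the lowest level of any probe called there was -3.36. The fitted slide difference of 2.64 was 0.71 with quantile normalization and 0.67 with the normexp background, both under 0.88. Tm9sf1 was higher on slide 2 by 1.69 (SE 0.27, adjusted p 0.00017 in limma) and Chgb was lower on slide 2, with a difference of -0.91 (SE 0.15, adjusted p 0.00022). Tm9sf1 and Chgb kept these directions and passed the threshold under every scaling tried, while their sizes moved, from 0.80 (median scaling) to 2.15 for Tm9sf1 and from -1.81 (median scaling) to -0.45 for Chgb.

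Rab5a was higher on slide 2 by 1.0 (SE 0.14, adjusted p 6.7e-05 in limma), but this call was lost under median scaling, where the difference was 0.10, and the sign turned under quantile normalization, to -0.080. The Anxa8 slide difference of -0.38 (SE 0.23, adjusted p 0.148) did not pass, although it was -1.28 (adjusted p 0.00017) under median scaling and above 0 under quantile normalization and under the percentile taken over probes above background on all arrays. The median of the probes named as negatives moved by 2.18 between slides. Its part in these slide differences was not tested.

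With the scaling by the 75th percentile, the slide accounted for 95.3% of the variance between arrays for Rab5a and 91.2% for Chgb. Its share was 70.5% for Tm9sf1 and 10.3% for Anxa8, against a median of 74.9% over all tested probes. For Atg3 the share was 93.8%. Atg3 was tested only because of its readings on the slide where it is high. Its share is therefore given as a description and is not compared with that median.

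**Figure D4:**
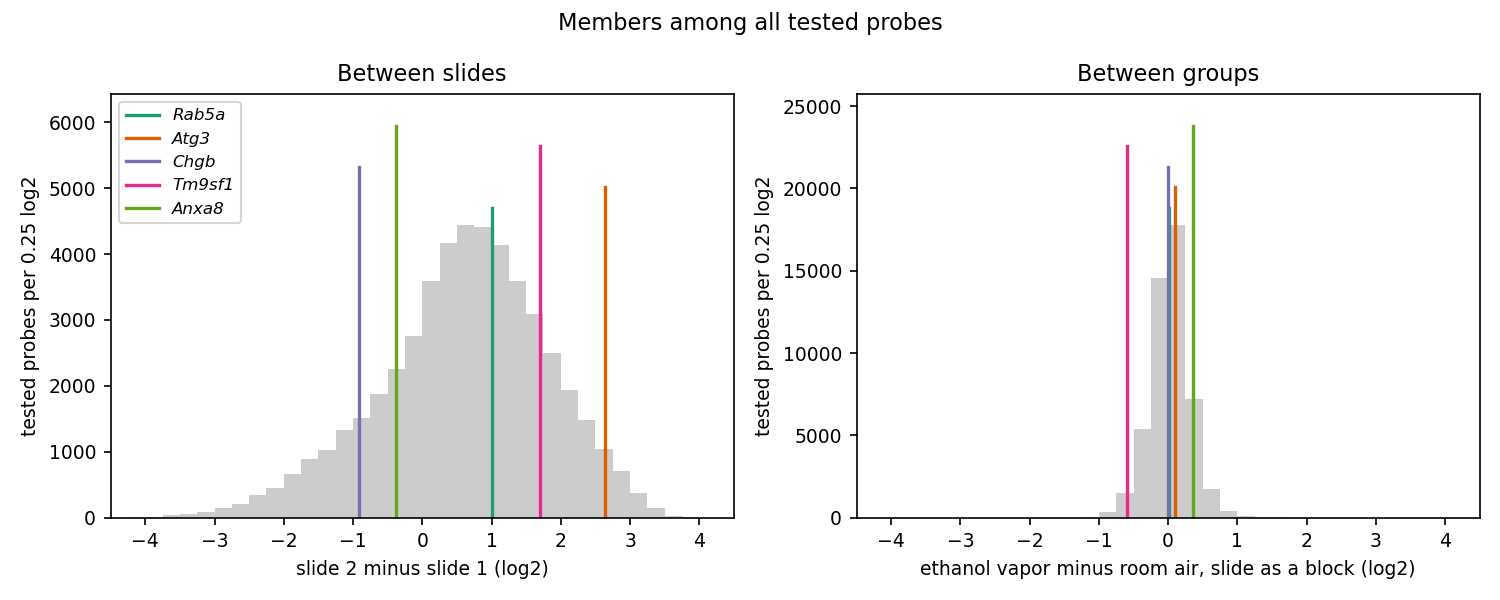
Differences of all 49356 tested probes as grey bars (number of probes per 0.25 log2), between slides on the left and between groups with the slide as a block on the right, with a coloured line for each gene. Between slides the genes spread from -0.91 (Chgb) to 2.64 (Atg3), and between groups from -0.59 (Tm9sf1) to 0.36 (Anxa8).

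After each slide's mean was subtracted, the 5 genes fell into no single pattern across the 10 arrays. Tm9sf1 ran opposite to Anxa8 (Pearson r -0.80) and to Atg3 (r -0.73), while Atg3 and Anxa8 ran together (r 0.77). Without the subtraction the values were -0.68, 0.71 and -0.13, so both signs that involve Atg3 turned, and Atg3 is the probe that is not read as detected. These are descriptions over 10 arrays that share their scaling and their slides. Rab5a had r between -0.11 and 0.40 with the other 4.

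Of the 34 other gene-named and tested probes, those most like each gene after subtraction of slide means were as follows. Lhx1, a homeobox transcription factor, was most like Tm9sf1, with r 0.98 before and after the subtraction. The next were Olfr166 (r 0.91) and Gm9789 (r 0.72), which without the subtraction had r -0.25 and -0.20. Uhrf1bp1l (r 0.96), Lhfp (r 0.96) and H2-Q7 (r 0.94) were most like the Atg3 probe, whose values are not read as detection. Without the subtraction their r with Atg3 was 0.68, 0.99 and 0.996. Mbp, the myelin basic protein gene (r 0.79), Apoe, the apolipoprotein E gene of astrocytes (r 0.71), and Actb (r 0.68) were most like Chgb. Without the subtraction their r with Chgb was 0.20, -0.21 and 0.31. Gsta4 (r 0.87), Uhrf1bp1l (r 0.86) and H2-Q7 (r 0.82) were most like Anxa8, with -0.065, 0.56 and -0.13 without the subtraction. Rab5a had weaker partners, Spats1 (r 0.56), Apoe (r 0.51) and Alkbh4 (r 0.50), with 0.86, 0.51 and 0.97 without the subtraction.

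Of 132 genes on lists of early endosome, autophagy, secretory granule, TM9 and secretory pathway, annexin and vesicle genes, only the 5 genes described here had a gene-named probe. No vesicle marker, such as Cd9, Cd63 or Cd81, was among the named probes, so the vesicle identity of the samples was not checked here. Of 51 cell type markers 2 had one, and both were read on 10 of 10 arrays. The Mbp level was 1.17 ± 0.35 (SD, n = 5) for room air against 1.16 ± 0.23 (SD, n = 5) for ethanol vapor, and that of Apoe 0.80 ± 0.19 against 0.89 ± 0.064. The part of cell type makeup in the values of the 5 genes was not tested.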

How the data were processed

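RNA was measured on 10 single-colour arrays, 5 per group. The authors' deposited scanner files hold background-subtracted spot intensities, unscaled between arrays. The software was Feature Extraction 11.0.1.1 of Agilent, as the headers state. A deposited table of log2 values covers 60641 probes but none of the 5 genes. Its making is not stated in the sources used here.

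Control and non-uniform spots were left out, the 75th percentile of each array was subtracted from log2 intensities, and spots were averaged. Probes were tested where well above background (at least 0.5 of their spots) on at least 5 of 10 arrays, which kept 49356 of 60823. The comparisons used lmFit and eBayes of limma 3.58.1 under R 4.3.3, two-sided and adjusted by Benjamini-Hochberg over all tested probes, with and without a slide term. The fits were also run on simulated data with independent errors. The check was only that the fit with a slide term returned the planted mean difference. It does not test the p-values on these arrays. No spot was saturated. The number of arrays limits the precision.

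Names came from a RefSeq table (GRCm38.p6), which matched 46 of 50 accessions. The array headers name mm9. The rule named all 5 genes and, for each, the 3 most alike named probes. Genes, lists and tests were chosen with earlier results of these data known. Alternatives covered scaling, background, dim probes, spots, arrays and the slide.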

Additional observations from a re-analysis of the deposited data

Results flagged for a closer look

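In 4 of 10 groups of 5 arrays, 1 array stood apart by more than 0.71 of the group's range, each time ethanol replicate 4. That array alone represents ethanol vapor on slide 1. Its gap to the nearest ethanol array, as a share of the whole ethanol range, was 0.839 for Rab5a, 0.729 for Atg3 and 0.734 for Tm9sf1, where it was lowest, and 0.769 for Chgb, where it was highest. Chance marks about 1 group in 20 where all arrays of a group are alike. That rate does not apply here, since the 4 genes are those whose levels did not overlap between slides. Of all tested probes 61.7% did not overlap between slides, and how many would carry the same mark was not counted. The marks are therefore not read as a property of these genes, and Atg3 is not read as detected. The Rab5a level of ethanol replicate 4, -2.75, lay beside -2.72 to -2.41 in the room air arrays of slide 1. For Anxa8 the same array was highest without standing apart, at 2.06 beside 2.02.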

How the results depend on the processing

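No probe passed the adjusted threshold between groups in limma under any setting over both slides, with or without the slide as a block, and 0 of the 5 genes did so. Without a slide term 2459 probes had an unadjusted p under 0.05, and between 607 (without room air replicate 3) and 18974 (without ethanol replicate 4) had one with 1 array left out. Within slide 1 alone 11 probes passed, where the 1 ethanol array is assumed to vary like the room air arrays, and within slide 2 alone 0. The median difference of all tested probes moved from 0.26 to -0.17 under median scaling, 0.020 under quantile normalization and 0.53 under the percentile taken from probes detected on all arrays.

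Signs turned as follows, and the cause was not tested. Without a slide term, median scaling gave -0.023 for Rab5a, -0.34 for Tm9sf1 and -0.22 for Anxa8, quantile normalization -0.090 for Rab5a and -0.080 for Tm9sf1, and the slide as a random block -0.56 for Tm9sf1. Slide 1 alone gave -0.14 for Rab5a, 0.30 for Chgb and -1.07 for Tm9sf1, and slide 2 alone -0.32 for Tm9sf1. With the slide as a block, Rab5a was -0.064 under median scaling, -0.058 under quantile normalization, -0.0095 with the median of spots and -0.037 with population outlier spots left out. Chgb was -0.066, -0.11 and -0.00088 under the first 3 of these. The Anxa8 slide difference was 0.079 under the percentile taken from probes detected on all arrays and 0.077 under quantile normalization, and that of Rab5a was -0.080 under quantile normalization.

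With 1 array left out, the Tm9sf1 difference without a slide term ranged from -0.21 to 0.52 and was below 0 without room air replicate 1 or 2 or ethanol replicate 7 or 8. Blocked differences ranged from -0.036 to 0.089 for Rab5a, -0.017 to 0.19 for Atg3 and -0.16 to 0.061 for Chgb. Between slides 37048 of the 49356 tested probes passed, and 24350 of the 34272 above background on all 10 arrays.

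No paired analysis was possible because the groups share no replicate number. The value table gave no value for the 5 genes. Normexp on mean signals was not run, and the median signals used in its place, like both spot settings, were chosen after seeing the data. Atg3 is limited by its signal over background.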
